A study of Drosophila melanogaster with 6 samples.

Results

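RNA-seq of whole larvae from the homozygous stock of HP1b86, a deletion allele of the X-linked gene HP1b, was compared with RNA-seq of whole yw larvae. Male larvae of such a stock are hemizygous. The comparison uses 4 of the 6 libraries of the series, namely the 2 labelled as HP1b86/HP1b86 and the 2 labelled as yw. The other 2 libraries come from another deletion allele, HP1b16, and enter only an alternative fit. Of the 16662 rows of the deposited expression table, 11029 had a mean of at least 1 FPKM over these 4 libraries and were tested. FPKM are fragments scaled to transcript length and to the mapped fragments of the library, so levels of different genes can be set side by side. Differences are given as log2(FPKM + 1) of HP1b86 minus yw throughout.

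All larvae were in the third instar, were raised at 25 °C, and gave total RNA extracted with Trizol. Their age within the instar is not stated in the sources used here, so stage and genotype cannot be told apart. HP1b86 was made by imprecise excision of a P element, removes the HP1b start codon and a large part of its coding sequence, and was crossed into the yw background, so that both genotypes carry the yellow and white mutations. It is 1 deletion line, and the mutant larvae therefore stand for a single allele and stock. Whether the 2 libraries of a genotype were made from different larvae is not stated in the sources used here, so p-values measure only the spread between these libraries, which may be technical. RNA came from whole animals, and fewer cells of a type and less RNA per cell cannot be told apart in such samples. The table holds no read numbers, and the methods of the study state the sequencing depth only as a range for all samples, so no counting interval is given.

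HP1 proteins are small chromatin proteins with a chromodomain, which binds methylated histone H3, and a chromo shadow domain, through which they dimerize and recruit partners. In Drosophila the family includes HP1a, a core component of heterochromatin whose gene has a Su(var) symbol in the table, HP1b, which is found in heterochromatin and euchromatin, and HP1c, which is mostly euchromatic. The third larval instar is the last feeding stage: larvae eat, store fat and protein in the fat body, and then leave the food, make salivary glue and tan their cuticle as pulses of the steroid ecdysone bring on the puparium.

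HP1b, the targeted gene, was measured at 22.8 and 24.2 FPKM in yw and 0.121 and 0.0403 in HP1b86. Each library thus lay where its label placed it (log2 difference -4.50, standard error 0.16, adjusted p = 0.0876 from limma). The genes on either side of HP1b in the Release 6 annotation lay slightly above yw in FPKM as deposited. CG7246, on one side of HP1b, was at 2.9 and 2.83 FPKM in yw and 4.89 and 4.47 in HP1b86, a difference of 0.56 that became 0.09 when libraries were scaled to TPM (a scale on which every library has the same total). APC4, which encodes a subunit of the anaphase promoting complex, was at 4.05 and 3.55 FPKM in yw and 4.9 and 4.35 in HP1b86. Its difference of 0.23 turned to -0.26 under TPM. The median over all tested rows also fell under TPM, from -0.01 to -0.53. Under median-ratio and quantile scaling the differences were 0.58 and 0.53 for CG7246 and 0.26 and 0.21 for APC4. The level of the HP1a gene was 164 and 153 FPKM in yw and 148 and 141 in HP1b86. The level of HP1c was 26.1 and 25 FPKM in yw and 19.97 and 23.4 in HP1b86. Both lay slightly lower in HP1b86, with differences of -0.13 and -0.23. HP1e, a family member known from the male germline, was at 2.43 and 1.87 FPKM in yw and 0.189 and 3.54 in HP1b86, and the HP1b86 libraries lay on opposite sides of the yw libraries.

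The 2 HP1b86 libraries lay far apart. Their values were at least 2-fold from each other in 23.9% of the tested rows, against 1.88% for the yw libraries, and the median SD within a genotype was 0.257 in HP1b86 and 0.116 in yw. The FPKM of all rows summed to 657936 and 654430 in yw and to 1132181 and 874571 in HP1b86. Replicate 1 was at least 2-fold above the yw mean in 1568 rows and at least 2-fold below in 1733, while replicate 2 was above in 1497 and below in 316. The 787 rows above in both are 50.2% of those of replicate 1 and 52.6% of those of replicate 2. The 265 rows below in both are 15.3% and 83.9%, so that most rows 2-fold below yw in replicate 1 were not so in replicate 2, and 436 rows were 2-fold above in one library and 2-fold below in the other.

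**Figure D1:**
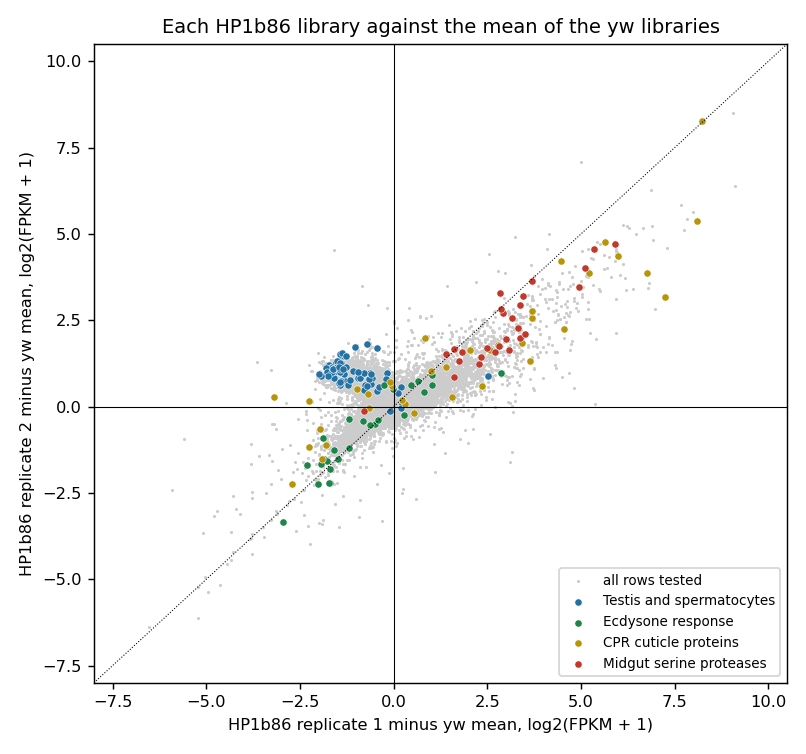
Each point is 1 of the tested rows, with the difference of HP1b86 replicate 1 from the yw mean on the x axis and that of replicate 2 on the y axis, both in log2(FPKM + 1); the dotted line marks equal differences, and the 5 rows listed at 0 in a library and at 500 FPKM or more in another are left out. Midgut serine proteases lie mostly above 0 in both libraries, ecdysone response genes mostly below 0 in both, and testis genes mostly below 0 in replicate 1 and above 0 in replicate 2.

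With this spread, no row passed an adjusted p of 0.05 in limma (0% of the rows higher and 0% lower in HP1b86). The smallest adjusted p, 0.0679, was shared by Cpr47Eg, CG11350 and a row listed at 0 in yw, Fbp1, which is described below, and no gene named below has a smaller value. At an unadjusted p under 0.05 there were 1512 rows higher (13.7%) and 1044 lower (9.47%). The count depended on which HP1b86 library was in the fit: limma called 92 rows higher and 12 lower without HP1b86 replicate 1, and 1713 higher and 1229 lower without replicate 2. With all 4 libraries, quantile normalization called 83 rows higher and 29 lower. An exact permutation test of 2 libraries against 2 cannot go below p = 0.333 (two-sided), so none is given. The order of the libraries was used instead as a description: both HP1b86 libraries lay above both yw libraries in 3450 rows (31.3%) and below both in 2866 (26%). The lowest HP1b86 library was at least 2-fold above the highest yw library in 648 rows (5.88%), and the highest HP1b86 library at least 2-fold below the lowest yw library in 183 (1.66%). These are called 2-fold above and 2-fold below from here on. The genotypes overlapped in 4713 of the 11029 rows. The counts given for gene lists below stand beside these shares of all tested rows. A row under 1 FPKM in both yw libraries passed the filter only through HP1b86 and could not be counted as below. The reverse holds for a row under 1 FPKM in both HP1b86 libraries. Genes named below that were under 1 FPKM in both yw libraries include lambdaTry, ng1, yellow-f2, Cyp28d2, CG11796 and Def.

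Of the 20 tested rows of HP1 genes, their partners and H3K9 methylation enzymes, 3 had both HP1b86 libraries above both yw libraries, 11 had both below, and 6 overlapped. The share below, 55.0%, stood beside 26% of all tested rows. It includes the deleted HP1b itself and rows with small gaps, such as HP1a (-0.049) and HP1c (-0.092 on the log2 scale). The row of Su(var)3-9, counted as above, also holds eIF-2gamma. Besides HP1b, those below included HP5 (9.46 and 10.6 against 6.51 and 6.57 FPKM, yw against HP1b86), the zinc finger protein gene woc (21.4 and 20.4 against 14.2 and 16.5), Su(var)3-7, whose product binds HP1a (8.68 and 9.22 against 6.29 and 6.56), and the H3K9 methyltransferase gene G9a (5.79 and 6.54 against 4.27 and 4.64). These differences were under 1 on the log2 scale. The only row of the list at least 2-fold higher held egg together with the cuticle gene Lcp9 under 1 value, at 101 and 241 FPKM in yw and 4192 and 551 in HP1b86, and the genes in it cannot be separated.

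The rows with the largest gap above yw were mostly genes with low levels in yw. Cpr47Eg, a cuticle protein gene, was at 0.842 and 0.248 FPKM in yw and 450.3 and 471 in HP1b86, with the HP1b86 libraries close together (log2 difference 8.25, standard error 0.24). CG11350 was at 1.23 and 1.32 FPKM in yw and 1206 and 831 in HP1b86 (log2 difference 8.78, standard error 0.23). CG15515 was at 0.436 and 0.0695 FPKM in yw and 144 and 95.6 in HP1b86. In other rows of this kind the HP1b86 libraries themselves lay several-fold apart. CG10953 was at 0.706 and 0.108 FPKM in yw and 756 and 114 in HP1b86. Its neighbour in the Release 6 annotation, CG30457, was at 0.106 and 0.135 FPKM in yw and 229 and 62.4 in HP1b86. In both of these adjacent genes replicate 1 was the higher HP1b86 library, and yw was near 0. CG5804, named Acbp5 in RefSeq, an acyl-CoA binding protein gene, was at 9.34 and 10.3 FPKM in yw and 2763 and 533 in HP1b86. Nplp2, a neuropeptide-like precursor gene, was at 49.2 and 54.4 FPKM in yw and 6445 and 1481 in HP1b86. In each of these 4 genes replicate 1 was the higher HP1b86 library, as in 580 of the 648 rows 2-fold above.

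Among the rows with the largest gap below yw, HP1b came after the noncoding RNA CR40640, which was at 348 and 116 FPKM in yw and 4.39 and 1.87 in HP1b86. CG17386, named Achl in RefSeq, was at 34.7 and 17.6 FPKM in yw and 0.314 and 0.387 in HP1b86. CR43166, a long noncoding RNA in RefSeq, was at 149 and 115 FPKM in yw and 2.9 and 9.38 in HP1b86. In these 3 rows the yw libraries lay closer to each other, on the log2 scale, than to either HP1b86 library, and so they did in CG5391, at 703 and 599 FPKM in yw and 32.3 and 107 in HP1b86. In several others the yw libraries differed strongly, with replicate 1 the higher. The antimicrobial peptide-like gene Drsl5 was at 626 and 26 FPKM in yw and 0.405 and 0.547 in HP1b86. CG14664 was at 118 and 13 FPKM in yw and 0.0975 and 0.0865 in HP1b86. The noncoding RNA pncr015:3L was at 166 and 14.1 FPKM in yw and 0.615 and 0.21 in HP1b86. The yw libraries were 2-fold or more apart in 29 of the 183 rows 2-fold below, and in 30 of the 648 rows 2-fold above.

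**Figure D2:**
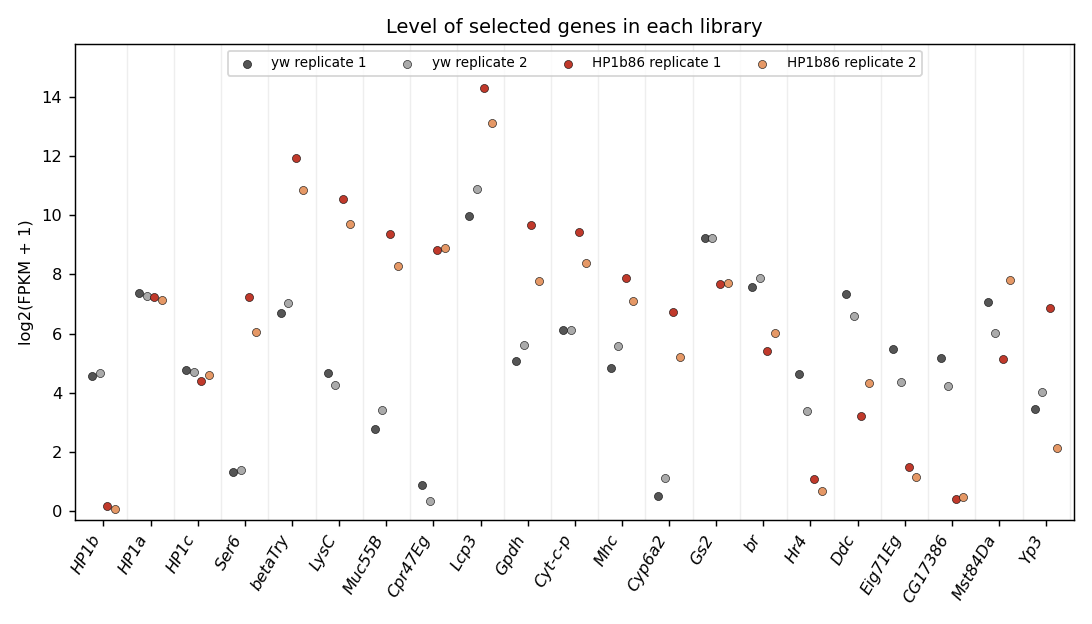
The level of 21 genes is shown in log2(FPKM + 1) on the y axis, with 1 point per library in the order yw replicate 1, yw replicate 2, HP1b86 replicate 1 and HP1b86 replicate 2. HP1b is near 0 in both HP1b86 libraries, HP1a and HP1c lie close to yw, and in Mst84Da and Yp3 the HP1b86 libraries lie on opposite sides of yw.

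Genes of digestion lay higher in both HP1b86 libraries. Midgut serine proteases, the trypsins and Jonah proteases that larvae secrete to cut food protein, were above yw in 26 of 28 tested rows, 25 of them 2-fold (5.88% of all tested rows were), with a median difference of 2.95 in replicate 1 and 1.97 in replicate 2. The medians over all tested rows were -0.11 and 0.16. Ser6, a serine protease gene, was at 1.5 and 1.6 FPKM in yw and 151 and 65.1 in HP1b86. The trypsin gene lambdaTry was at 0.22 and 0.167 FPKM in yw and 47.9 and 27.1 in HP1b86. The more strongly expressed betaTry was at 102 and 129 FPKM in yw and 3943.8 and 1869 in HP1b86. In these 3 genes replicate 1 was the higher HP1b86 library and the yw libraries were close. Jon66Cii was at 172 and 164 FPKM in yw and 2170.3 and 2083 in HP1b86. Jon99Fii was at 313 and 349 FPKM in yw and 3598 and 3023 in HP1b86. In these Jonah genes the HP1b86 libraries lay close to each other. Trypsin and Jonah genes have close copies, and reads shared between copies make the values of single members uncertain. Jon99Ciii, a further member, was listed at 0 in HP1b86 replicate 2 and at 10082 FPKM in replicate 1, against 878 and 1024 in yw.

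Lysozymes of the Lys cluster, which digest bacteria in the larval gut, lay on the same side. Of 11 tested lysozyme rows, 8 were above, 4 of them 2-fold, and 1 was below. LysC was at 24.3 and 18 FPKM in yw and 1517 and 832 in HP1b86. LysD was at 475 and 536 FPKM in yw and 10231 and 5298 in HP1b86. LysS was at 803 and 1120.0 FPKM in yw and 9039.6 and 4998 in HP1b86. These close copies and LysB are the rows 2-fold above, with yw levels that spanned a wide range. Of 16 amylase, maltase and mannosidase rows, 10 were above, 6 of them 2-fold, and 3 were below. The alpha-mannosidase gene CG9468 was at 2.23 and 5.22 FPKM in yw and 449 and 162 in HP1b86. The maltase gene Mal-A1 was at 8.7 and 12.1 FPKM in yw and 118 and 51.8 in HP1b86. Lipases were mixed, with 7 of 12 rows above and 2 below. Magro (mag), a lipase and sterol esterase of the gut, was at 242 and 367 FPKM in yw and 1563 and 1004 in HP1b86. CG6283, another lipase gene, lay on the other side at 135 and 219.7 FPKM in yw and 61.8 and 14.5 in HP1b86.

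Mucins, peritrophins and chitin enzymes, which form and trim the peritrophic matrix around the food and the chitin of the cuticle, were above in 25 of 40 rows (9 of them 2-fold) and below in 6. The mucin gene Muc55B was at 5.78 and 9.72 FPKM in yw and 664 and 309 in HP1b86. Peritrophin-15a was at 826 and 992 FPKM in yw and 2848 and 4142 in HP1b86. Here replicate 2 was the higher HP1b86 library. The gene obst-E, which encodes a chitin-binding cuticle protein, was at 6.69 and 16.9 FPKM in yw and 324 and 137 in HP1b86. The summed level of the 5 midgut markers betaTry, alphaTry, Jon65Aiv, Mal-A1 and LysB was 4302 and 4854 FPKM in yw and 36377 and 18393 in HP1b86, and whether the share of midgut in the larvae had a part in these differences was not tested.

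Cuticle protein genes lay above yw more often than below. Of the 36 rows of the CPR family, whose Rebers and Riddiford motif binds chitin, 21 were above yw (16 of them 2-fold) and 5 below (4 of them 2-fold). Besides Cpr47Eg, the CPR gene Cpr11A was at 0.255 and 0.246 FPKM in yw and 77.8 and 24.7 in HP1b86. Cpr47Ec was at 1.13 and 1.43 FPKM in yw and 615 and 93.9 in HP1b86. Cpr49Af was at 2.11 and 2.74 FPKM in yw and 368 and 48.4 in HP1b86. In these 3 genes replicate 1 lay several-fold above replicate 2, and both lay far above yw. In Cpr67Fa2, a near copy of Cpr67Fa1 with which it may share reads, the HP1b86 libraries were close, at 2.33 and 2.96 FPKM in yw and 79.5 and 66.6 in HP1b86. Larval cuticle genes were above in 15 of 19 rows, 9 of them 2-fold. Lcp65Ag1, Lcp65Ag2, Lcp65Ag3, Lcp65Aa and Lcp65Ae were under 1 FPKM in both yw libraries. Such rows passed the filter only through HP1b86 and could not be counted as below. The same holds for Cpr47Eg, Cpr67Fa1 and Cpr11A among the CPR rows. Lcp3, an abundant cuticle protein gene of the third instar, was at 1014 and 1894 FPKM in yw and 20171 and 8899 in HP1b86. Lcp65Ag1, one of a set of close copies, was at 0.0479 and 0.122 FPKM in yw and 13.4 and 14 in HP1b86. Cpr78E and the Tweedle gene TwdlO followed another pattern. Cpr78E was at 1450.3 and 2288 FPKM in yw and 198 and 2198 in HP1b86. TwdlO was at 1.69 and 0.679 FPKM in yw and 0.188 and 22.7 in HP1b86. Cpr78E thus lay apart from yw in replicate 1 alone, and TwdlO was above yw in replicate 2 and below it in replicate 1.

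The enzymes that tan and darken the cuticle were mixed. Of 19 tested rows, 8 were below yw (5 of them 2-fold), 5 above (2 of them 2-fold), and 6 overlapped. Ddc, dopa decarboxylase, was at 162 and 95.8 FPKM in yw and 8.15 and 19.2 in HP1b86 (log2 difference -3.21, standard error 0.54). The gene ple, which encodes tyrosine hydroxylase, was at 207 and 19.5 FPKM in yw and 3.78 and 2.41 in HP1b86. The yw libraries were themselves far apart for ple, where yw replicate 1 alone was high. The gene b, for the decarboxylase that makes beta-alanine, was at 18.6 and 11.5 FPKM in yw and 0.634 and 4.27 in HP1b86. Yellow-c was at 184 and 76.4 FPKM in yw and 7.71 and 20.7 in HP1b86. In the opposite direction, Dat, which acetylates dopamine, was at 7.45 and 10.9 FPKM in yw and 57.6 and 32.3 in HP1b86. The dopachrome conversion enzyme gene yellow-f2 was at 0.121 and 0.237 FPKM in yw and 6.18 and 2.06 in HP1b86.

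Genes that respond to ecdysone were mostly lower in HP1b86. Of the 27 tested rows, 18 had both HP1b86 libraries below both yw libraries (10 of them 2-fold), 6 were above (none by 2-fold) and 3 overlapped, with a median difference of -1.19 in replicate 1 and -0.52 in replicate 2. Of all tested rows, 26% were below and 1.66% 2-fold below. The broad gene (br), an early gene of the ecdysone cascade that encodes a transcription factor, was at 188 and 233 FPKM in yw and 41.6 and 63.7 in HP1b86 (log2 difference -2.0, standard error 0.28). Eip75B, which encodes a nuclear receptor of the cascade, was at 69.6 and 73.7 FPKM in yw and 20.1 and 23.1 in HP1b86. Hr4, another nuclear receptor gene, was at 23.5 and 9.5 FPKM in yw and 1.09 and 0.579 in HP1b86. The groups lay well apart in each of these genes. Blimp-1, a transcription factor gene that ecdysone induces, was at 8.35 and 7.71 FPKM in yw and 1.22 and 0.909 in HP1b86. ImpE1, induced by ecdysone in imaginal discs, was at 30.3 and 22.5 FPKM in yw and 7.2 and 4.89 in HP1b86. ImpE2, of the same kind, was at 488 and 352 FPKM in yw and 128 and 119 in HP1b86. In these 6 genes the HP1b86 libraries lay within 2-fold of each other and the groups did not overlap. What part the age of the larvae within the instar had in these differences was not tested.

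**Figure D3:**
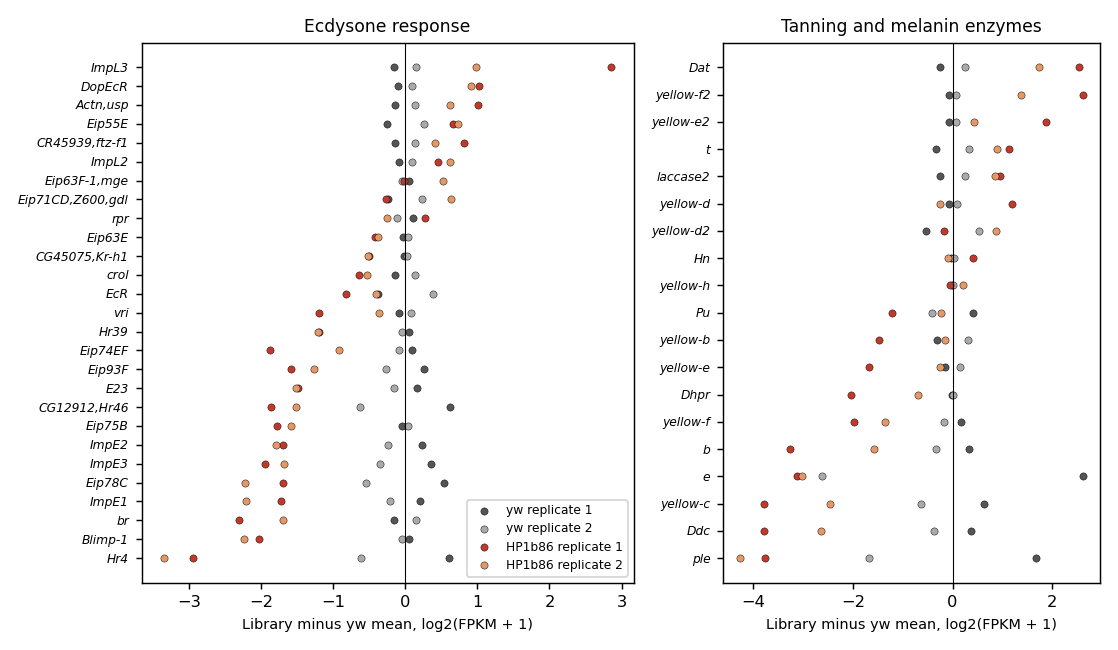
For each tested row of the ecdysone response list (left) and of the tanning and melanin list (right), the x axis gives the difference of each library from the yw mean in log2(FPKM + 1), with 1 point per library and rows sorted by the mean of HP1b86. Both HP1b86 libraries lie left of both yw libraries in 18 of 27 ecdysone response rows and in 8 of 19 tanning rows, and the yw libraries are far apart for ple.

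The genes that make ecdysteroids showed smaller differences. Of 13 rows, 7 were below and 2 above, and none was 2-fold on either side. Shade (shd), the enzyme that turns ecdysone into its active form in peripheral tissues, was at 19 and 22.6 FPKM in yw and 30.1 and 37.3 in HP1b86. Shroud (sro), which acts in the prothoracic gland, was at 37.2 and 44.5 FPKM in yw and 87.4 and 26.5 in HP1b86, with the HP1b86 libraries on opposite sides of yw. Of 13 rows of juvenile hormone synthesis, turnover and response, 8 were above yw and 2 below, with a list median of 0.26 that turned to -0.24 under TPM. The 3 rows 2-fold above were Jheh1, Jheh3 and JhI-26. Jheh3, an epoxide hydrolase gene whose product breaks the hormone down, was at 19.5 and 22 FPKM in yw and 178 and 71.4 in HP1b86. JhI-26, a gene that juvenile hormone induces, was at 6.005 and 9.46 FPKM in yw and 108 and 31.1 in HP1b86.

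Salivary gland genes differed within the group. The new glue genes ng1, ng2 and ng3, expressed in the gland before the main glue genes, were 2-fold above yw. The level of ng1 was 0.33 and 0.9 FPKM in yw and 109.9 and 27 in HP1b86. The level of ng3 was 94.9 and 195 FPKM in yw and 1903 and 487 in HP1b86. Replicate 1 was the higher HP1b86 library in both. Of the 12 rows of the list, 6 were below. Eig71Ee, a late puff and glue gene, was at 3407 and 3459 FPKM in yw and 1119 and 1607 in HP1b86. CG7587, named Sgs5bis in RefSeq, was at 706 and 742 FPKM in yw and 149 and 65.2 in HP1b86. The glue markers Sgs3, Sgs4, Sgs7 and Sgs8, all above 0 in the 4 libraries, summed to 65663 and 54814 FPKM in yw, to 17046 in HP1b86 replicate 1 and to 40134 in replicate 2, so that mainly replicate 1 stood apart. Of the Eig71E late genes only 2 passed the filter on low values, Eig71Ee and Eig71Eg, and the latter was at 43.8 and 19.7 FPKM in yw and 1.79 and 1.2 in HP1b86.

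Genes of energy metabolism mostly lay higher in both HP1b86 libraries, with list medians further above yw in replicate 1. Glycolytic and related genes were above in 16 of 19 rows, with medians of 2.09 and 0.93. The 2 that were 2-fold above were the enzymes of the glycerol phosphate shuttle. Gpdh was at 32.8 and 47.8 FPKM in yw and 808 and 221 in HP1b86. Its mitochondrial partner Gpo-1 was at 3.24 and 4.24 FPKM in yw and 112 and 36 in HP1b86. Of 31 Krebs cycle rows, 20 were above and none below. SdhB, a subunit of succinate dehydrogenase, was at 59.3 and 58 FPKM in yw and 215 and 123 in HP1b86. The other 11 rows overlapped, and in all 11 of them replicate 2 was the higher HP1b86 library. In 10 of the 31 rows replicate 1 lay below and replicate 2 above both yw libraries, beside 22.4% of all tested rows. Of sugar storage genes, 9 of 10 were above, while CG5171, a trehalose-phosphatase gene, was at 351 and 228 FPKM in yw and 3.74 and 52 in HP1b86 and was the single row below.

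No row of the respiratory chain lists lay below yw, but the number of rows 2-fold above varied by complex. Complex I, NADH dehydrogenase, was above in 28 of 39 rows, 4 of them 2-fold (medians 1.38 and 0.76). Complexes III and IV were above in 19 of 29, with 13 rows 2-fold (medians 1.89 and 1.13). The ATP synthase was above in 13 of 19, with none 2-fold (medians 1.85 and 0.89). Its medians thus lay above those of complex I. In 7, 8 and 4 rows of these lists, in that order, replicate 1 lay below and replicate 2 above both yw libraries. Cyt-c-p, the main cytochrome c gene, was at 68.8 and 68.7 FPKM in yw and 687 and 333 in HP1b86 (log2 difference 2.78, standard error 0.42). The cytochrome c oxidase subunit gene levy was at 207 and 207 FPKM in yw and 945 and 515 in HP1b86. In both genes the yw libraries were nearly equal and HP1b86 replicate 1 was the highest. The row of the mitochondrially encoded mt:ND2, which holds 2 tRNA genes as well, was at 91.2 and 64.8 FPKM in yw and 300.1 and 218 in HP1b86. Another mitochondrial row, of ATPase, oxidase and tRNA genes, was listed at 0 in 3 libraries and at 41351 FPKM in HP1b86 replicate 1, where it made up 3.65% of all FPKM, and is counted as overlapping.

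**Figure D4:**
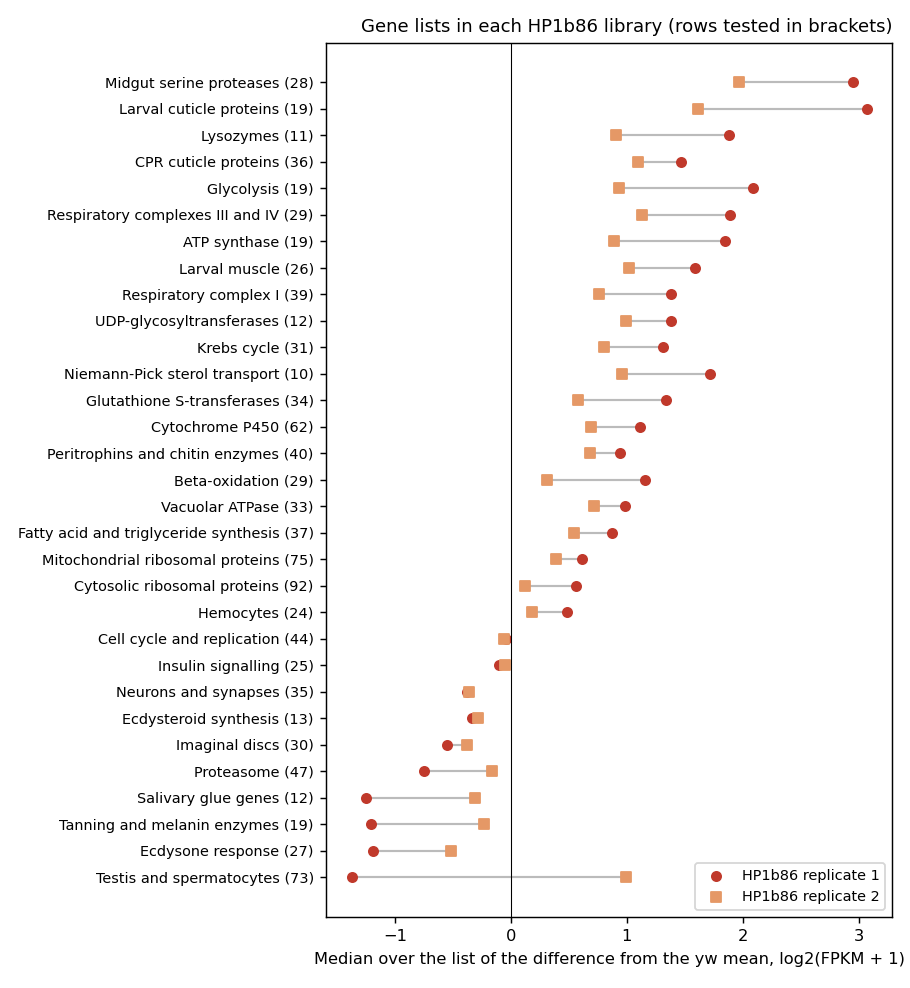
For 31 gene lists, the x axis gives the median over the tested rows of the difference from the yw mean in log2(FPKM + 1), as a circle for HP1b86 replicate 1 and a square for replicate 2; the number of rows stands in brackets. Of the lists shown, midgut serine proteases have medians of 2.95 and 1.97, the ecdysone response has medians of -1.19 and -0.52, and the testis list has a median of -1.37 in replicate 1 and 0.99 in replicate 2.

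Genes that build and burn fat lay above yw more often than below as deposited, with smaller medians under TPM. TPM also lowered the median over all tested rows, from -0.01 to -0.53. Relative to that median, fatty acid and triglyceride synthesis kept 0.55 under TPM, beta-oxidation 0.70 and the lipid droplet list 0.35. Of 37 rows of fatty acid and triglyceride synthesis, 21 were above (7 of them 2-fold) and 3 below, and the list median of 0.61 became 0.03 under TPM. ACC, acetyl-CoA carboxylase, was at 5.82 and 5.95 FPKM in yw and 35.1 and 19.3 in HP1b86. CG3523, a fatty acid synthase gene, was at 21.2 and 32.2 FPKM in yw and 216 and 101 in HP1b86. Men, malic enzyme, which yields reducing power for fatty acid synthesis, was at 36.6 and 42.1 FPKM in yw and 373 and 118 in HP1b86. Beta-oxidation genes were above in 25 of 29 rows, though only 3 were 2-fold, among them the acyl-CoA oxidase gene Acox57D-d at 1.8 and 1.97 FPKM in yw and 23.2 and 7.1 in HP1b86. The beta-oxidation median of 0.76 became 0.17 under TPM. Niemann-Pick type C genes, which carry sterols, were above in 6 of 10 rows. Npc2f was at 65.8 and 63.4 FPKM in yw and 241 and 238 in HP1b86. Npc1b, the gut form needed for sterol uptake, was at 2.61 and 2.36 FPKM in yw and 13 and 9.45 in HP1b86. Of 18 lipid droplet and lipolysis rows, 9 were above and 3 below, with a median of 0.40 that turned to -0.18 under TPM. Seipin, a lipid droplet protein gene, was at 2.57 and 2.88 FPKM in yw and 25.4 and 10.2 in HP1b86. The lipoprotein receptor gene LRP1 was one of those that lay below, at 10.8 and 9.89 FPKM in yw and 3.1 and 3.13 in HP1b86.

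Amino acid enzymes split by gene. Both glutamine synthetase genes lay 2-fold below yw, Gs1 and Gs2, the latter at 595 and 602 FPKM in yw and 204.6 and 206 in HP1b86 with little spread in either genotype (log2 difference -1.54, standard error 0.14). Gdh, glutamate dehydrogenase, was above yw at 62.3 and 85 FPKM in yw and 441 and 194 in HP1b86. CG11796, a gene of tyrosine breakdown named Hpd in RefSeq, was at 0.138 and 0.135 FPKM in yw and 3.69 and 3.4 in HP1b86. In the whole list of 36 rows, 18 were above and 9 below, with a median of 0.25 that turned to -0.32 under TPM. Insulin signalling genes had a median of -0.11, with 6 of 25 rows above and 13 below, and only Ilp6, the insulin-like peptide of the fat body, was 2-fold below, at 92.5 and 99.1 FPKM in yw and 43.6 and 36.2 in HP1b86.

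Detoxification enzymes were mostly higher. Cytochrome P450 genes were above in 44 of 62 rows (12 of them 2-fold) and below in 4. Cyp6a2, known for insecticide metabolism, was at 0.417 and 1.14 FPKM in yw and 106 and 36.2 in HP1b86. Cyp28d2 was at 0.961 and 0.993 FPKM in yw and 49.5 and 28.5 in HP1b86. Both were near 1 FPKM or below in yw. Glutathione S-transferase genes were above in 24 of 34 rows and below in 1. GstE10 was at 1.91 and 2.47 FPKM in yw and 24.6 and 14.2 in HP1b86. UDP-glycosyltransferases were above in 9 of 12 rows. In the antioxidant list Gclc and Gclm, the subunits of the enzyme that starts glutathione synthesis, lay above yw: the level of Gclc was 22.4 and 21.7 FPKM in yw and 53.4 and 50.6 in HP1b86. The level of Gclm was 23.1 and 22.1 FPKM in yw and 104 and 60.4 in HP1b86. MtnB, a metallothionein gene, lay on the other side at 233 and 240.1 FPKM in yw and 61.7 and 21.3 in HP1b86, and the median of the list turned from 0.30 to -0.30 under TPM and to -0.19 under quantile normalization.

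Muscle genes were higher in both HP1b86 libraries, and the yw libraries also differed. Of 26 rows, 22 were above (8 of them 2-fold) and 1 was below. Mhc, muscle myosin heavy chain, was at 27.7 and 46.4 FPKM in yw and 236 and 138 in HP1b86. Mlc2, a myosin light chain gene, was at 119 and 227 FPKM in yw and 1274 and 602 in HP1b86. TpnC47D, a troponin C gene, was at 16.2 and 30.1 FPKM in yw and 507 and 173 in HP1b86. Yw replicate 2 was above yw replicate 1 in all but 1 of the rows, with a median difference of -0.68 between them (replicate 1 minus replicate 2). The 5 muscle markers Mhc, Mlc2, Tm2, wupA and up summed to 854 and 1433 FPKM in yw and to 4351 and 2624 in HP1b86.

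Genes of the imaginal discs and nervous system lay lower. Of 30 disc rows, 24 were below yw and none above, with N, the Notch receptor gene, at 14.2 and 13.9 FPKM in yw and 4.64 and 5.92 in HP1b86 and the only row 2-fold below. Of 35 neuronal rows, 19 were below and 4 above, and fne, an RNA-binding protein gene of neurons, was at 11.9 and 13.7 FPKM in yw and 4.28 and 5.06 in HP1b86. The summed level of 4 neuronal markers was 50.4 and 67.9 FPKM in yw and 38.4 and 36 in HP1b86. That of 4 disc markers was 24.9 and 25.7 in yw and 19.6 and 18.7 in HP1b86. Among the disc markers nub went the other way in replicate 1, at 5.6 and 6.01 FPKM in yw and 6.48 and 5.72 in HP1b86. The part of tissue make-up in these differences was not tested. Cell cycle genes overlapped in 25 of 44 rows, beside 4713 of all 11029, and PCNA, the sliding clamp of DNA replication, lay slightly above yw at 49.7 and 44.8 FPKM in yw and 53.8 and 51 in HP1b86, a difference of 0.15 that turned to -0.44 under TPM and to -0.21 under quantile normalization. Of the blood cell genes, PPO1, the prophenoloxidase of crystal cells, was above at 63.1 and 45.3 FPKM in yw and 336 and 147 in HP1b86. NimC2, of a family of phagocytosis receptors, was below at 224 and 161 FPKM in yw and 52.7 and 66.7 in HP1b86. The blood cell markers Hml, NimC1 and eater summed to 17.1 and 21.4 FPKM in yw and to 31 and 21.6 in HP1b86. Only Hml was higher, at 6.17 and 8.63 FPKM in yw and 22.2 and 11.1 in HP1b86. NimC1 was at 2.35 and 2.97 FPKM in yw and 1.77 and 2.4 in HP1b86. The marker eater was at 8.55 and 9.83 FPKM in yw and 7 and 8.13 in HP1b86.

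Antimicrobial peptide genes had no common direction: 6 of 16 rows were above, 5 below and 5 overlapped. Def, defensin, was at 0.282 and 0.27 FPKM in yw and 2.24 and 1.86 in HP1b86. TotA, a Turandot stress protein gene, was at 582 and 510.0 FPKM in yw and 1914 and 1849 in HP1b86. Of 22 heat shock rows, 9 were above, 5 below and 8 overlapped, with medians of -0.12 in replicate 1 and 0.49 in replicate 2. Hsp27, which lies in a cluster of small heat shock genes that ecdysone induces, was at 720.4 and 575 FPKM in yw and 199 and 263 in HP1b86. Hsp67Bc, of the same cluster, was at 249.9 and 145 FPKM in yw and 47.7 and 51.1 in HP1b86. The co-chaperone gene DnaJ-1 lay on the other side at 36.8 and 31.9 FPKM in yw and 87.4 and 92.3 in HP1b86.

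Among genes that make and break down proteins, mitochondrial ribosomal protein genes were above in 70 of 75 rows with none below and none 2-fold (medians 0.61 and 0.39). The median of all 75 was -0.08 when libraries were scaled to TPM, which was 0.44 above the median of all tested rows on that scale. Cytosolic ribosomal protein genes were above in 49 of 92 rows and below in none (medians 0.56 and 0.12), and their joint median of 0.33 turned to -0.27 under TPM and to -0.30 under quantile normalization. RpS14b, one of a pair of nearly identical genes whose reads may be shared, was at 231 and 219 FPKM in yw and 644 and 532 in HP1b86 and was the only row 2-fold above. Proteasome genes were below in 31 of 47 rows and above in none. In all 47 of them replicate 1 was below replicate 2, against 55.9% of all tested rows, with Prosalpha3 at 250.2 and 234 FPKM in yw and 146 and 201 in HP1b86. Of 33 proton pump (Vha) rows, 19 were above (57.6%, beside 31.3% of all tested rows), 2 below and 12 overlapping. In all 12 of these replicate 1 lay below and replicate 2 above both yw libraries, beside 22.4% of all tested rows. Vha100-5 was at 17.6 and 23.2 FPKM in yw and 90.01 and 79.9 in HP1b86.

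Testis genes marked the distance between the HP1b86 libraries. HP1b86 replicate 1 lay below and replicate 2 above both yw libraries in 2476 of the 11029 tested rows (22.4%), and the reverse held in 464 (4.21%). Among 73 rows of spermatocyte and spermatid genes the first order held in 66 and the reverse in 1. The median difference of the list from the yw mean was -1.37 in replicate 1 and 0.99 in replicate 2. Mst84Da, a sperm tail protein gene, was at 133 and 64.3 FPKM in yw and 34.2 and 224 in HP1b86. The 4 testis markers found summed to 160 and 86.1 FPKM in yw and to 39.2 and 245 in HP1b86. The yw libraries differed in the same genes, with yw replicate 1 above yw replicate 2 in 71 of the rows and a median difference of 0.53.

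Some other genes tied to sex also separated the HP1b86 libraries. All 3 rows of Y-linked genes that passed the filter had replicate 1 below and replicate 2 above both yw libraries, for example ARY at 1.69 and 0.914 FPKM in yw and 0.263 and 2.83 in HP1b86. The noncoding RNA roX1, which coats the male X chromosome, was at 97.1 and 76.8 FPKM in yw and 75.7 and 124 in HP1b86. The dosage compensation marker roX2 was at 7.98 and 3.47 FPKM in yw and 9.68 and 17.4 in HP1b86, with both HP1b86 libraries above yw. Of 13 dosage compensation rows, 2 had replicate 1 below and replicate 2 above both yw libraries, beside 22.4% of all tested rows. Yp3, a yolk protein gene, had the opposite order, at 10.02 and 15.4 FPKM in yw and 115 and 3.38 in HP1b86, whereas Yp1 was listed at 0 in both yw libraries and at most 0.086 FPKM in HP1b86. No source used here gives the sex of the larvae, and what part the make-up of the libraries had in any difference was not tested.

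**Figure D5:**
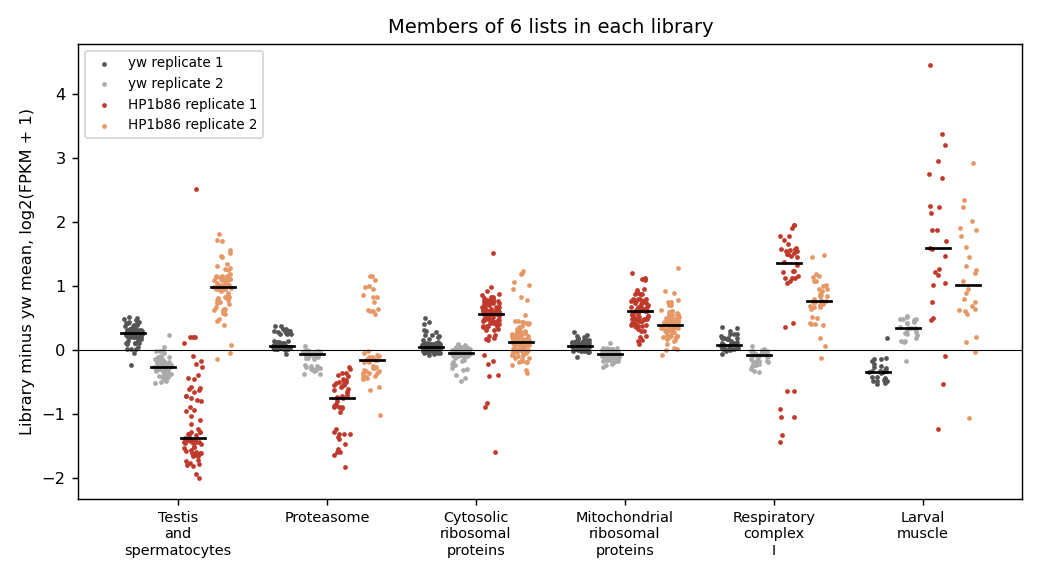
For 6 gene lists, each point is 1 tested row in 1 library, the y axis gives its difference from the yw mean in log2(FPKM + 1), and the bars are medians; the mitochondrial row listed at 0 in 3 libraries is left out. In the testis list HP1b86 replicate 1 has a median of -1.37 and replicate 2 of 0.99. Proteasome genes have a median below 0 in both HP1b86 libraries (-0.75 in replicate 1 and -0.16 in replicate 2), and larval muscle genes a median above 0 in both.

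Single genes also separated the HP1b86 libraries. CG10073 was at 0.115 and 0.239 FPKM in yw and 47.9 and 0.228 in HP1b86, with replicate 2 at the level of yw and replicate 1 alone high. CG7203 was at 0.515 and 0.286 FPKM in yw and 37.9 and 1.01 in HP1b86. The carboxylesterase gene alpha-Est2 was at 4.43 and 7.97 FPKM in yw and 179 and 12.7 in HP1b86. In these genes the 2-library mean of HP1b86 describes neither library. Lower in replicate 1 was CG9021, at 929 and 853 FPKM in yw and 17.5 and 466 in HP1b86. CG7045, an HMG-box protein gene named tHMG1 in RefSeq, was at 72.2 and 46.7 FPKM in yw and 11.8 and 119 in HP1b86, with replicate 2 above both yw libraries.

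In the fat body, the larval serum protein genes, which encode the storage proteins of the hemolymph, were in part listed at 0. Fbp1, which encodes the receptor for larval serum protein uptake, was listed at 0 in both yw libraries and at 4491 and 8029 FPKM in HP1b86. Lsp1beta was listed at 0 in HP1b86 replicate 1 and at 8872 FPKM in replicate 2, against 2348 and 3786 in yw, and Lsp1gamma likewise at 0 in replicate 1 and at 9543 in replicate 2, against 2883 and 4243. An exact 0 in such a row can be a failed estimate. Lsp2, another storage protein gene of the same tissue and one of the fat body markers, was at 7602 and 8239 FPKM in yw and 16386 and 8705 in HP1b86. No fold change is given for the rows listed at 0.

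By chromosome arm, the share of rows 2-fold above yw ran from 5.22% on 2L to 6.63% on 3R, with 5.48% on the X, where HP1b lies. On chromosome 4, which is rich in heterochromatin, none of 83 rows was 2-fold above or below, and the median difference was -0.21 in replicate 1 and -0.13 in replicate 2. The scaling between libraries moved the balance of the comparison. Scaled to TPM, the median over all tested rows was -0.53 (log2) in place of -0.01, with 429 rows 2-fold above and 570 below. Relative to that shift, midgut serine proteases kept a median of 2.50, complexes III and IV of 1.44, larval muscle of 1.40 and the ecdysone response of -0.84.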

How the data were processed

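RNA-seq of whole larvae was analysed from 1 table of 6 libraries, of which the 2 HP1b86 and the 2 yw libraries were compared. The authors deposited FPKM values per row, made with Cufflinks 2.2.1 on the dm3 genome after alignment with TopHat2 2.1.1. Trim Galore 0.4.1 had trimmed the reads, and bcl2fastq 2.18.0.12 had made the read files. The annotation and any further scaling are not given in the sources used here, nor is whether strand was used, so values of overlapping genes may share reads. A row may hold several genes under 1 value (566 of the tested rows), and 1812 rows were at 0 in all 4 libraries.

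The 11029 rows that averaged at least 1 FPKM over the 4 libraries were tested on log2(FPKM + 1) with limma 3.58.1 in R 4.3.3 (mean-variance trend, two-sided, Benjamini-Hochberg over these rows, threshold 0.05). FPKM keep no read numbers, so no count model was used. The gap between the genotypes is the lowest library of one minus the highest of the other on that scale, and a gap of at least 1 was called 2-fold. Gene lists (58, with 39 listed symbols that had no row) are described by counts and medians, without a test. Samples were grouped by their genotype labels.

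The libraries, gene lists and rules were chosen with earlier results of these data known. Named genes are HP1b, its neighbours and the HP1 family; the 15 rows with the largest gap in each direction; the 12 rows with the largest difference between the HP1b86 libraries in each direction; up to 6 members of each list with a 2-fold gap, or else its 2 most abundant members; rows at exactly 0 in 1 library and at 500 FPKM or more in another; and the cell type markers. The picks by gap and by difference between the HP1b86 libraries were made among single-gene rows only. Rows picked by the gap below yw also had to be above 0 in every yw library. Rows picked by the difference between the HP1b86 libraries had yw libraries less than 2-fold apart. Chromosome arms, neighbours and newer gene names come from RefSeq Release 6, without coordinates, since the files use dm3. The alternatives were another pseudocount (0.1), no filter, TPM, median-ratio and quantile scaling, all 6 libraries in 1 fit, a replicate block, no trend, library weights, and leaving out each library.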

Additional observations from a re-analysis of the deposited data

How the results depend on the processing

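No row was called with a pseudocount of 0.1, without the filter, with median-ratio scaling or without the trend. TPM called 1 row higher, library weights called 2 higher, quantile normalization called 83 higher and 29 lower, and a fit of all 6 libraries, which borrows its spread from the HP1b16 libraries, called 335 higher and 121 lower. Leaving out each library in turn gave 0 to 1713 rows higher and 0 to 1229 lower: 0 without either yw library, 92 and 12 without HP1b86 replicate 1, and 1713 and 1229 without HP1b86 replicate 2. In each of these fits the lone library is assumed to vary like the other genotype. The 648 rows 2-fold above became 429 under TPM, and the 183 rows 2-fold below became 570 under TPM and 294 under quantile normalization.

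The replicate numbers of the labels say nothing of a shared origin, and the deviations of libraries with the same number correlated at -0.399. A fit with the replicate number as a block called 0 rows higher and 0 lower, with 983 and 532 at an unadjusted p under 0.05.

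Of 120 named genes put through every setting, 108 kept their direction, and the others turned as follows. Not every gene named in the text was among the 120: Lsp1beta, Lsp1gamma, Jon99Ciii and nub, for example, were not. Under TPM the log2 difference was -0.26 for APC4, -0.01 for Lsp2, -0.44 for PCNA, -0.43 for roX1 and -0.35 for sro. Under quantile normalization it was -0.12 for Lsp2, -0.21 for PCNA, -0.29 for roX1 and -0.15 for sro. With 1 library left out, the range was -0.85 to 0.76 for ARY, -2.20 to 1.02 for CG7045, -3.19 to 0.27 for Cpr78E, -1.40 to 0.53 for HP1e, -1.41 to 1.26 for Mst84Da, -0.84 to 3.48 for TwdlO, -1.62 to 3.11 for Yp3, -0.19 to 0.52 for roX1 and -0.60 to 1.08 for sro. In the genes of these ranges the sign of the HP1b86 mean therefore depends on the library or the setting. The cause of these differences between settings was not tested. The table holds no read numbers, and 2 libraries per genotype limit every comparison.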
